A study of Saccharomyces cerevisiae with 10 samples.

Results

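The stress and stationary phase effector genes described here are 36 genes of budding yeast, Saccharomyces cerevisiae, that are known to be induced when cells meet stress or run out of nutrients. They were chosen by name, from genes of the kind driven by the transcription factors Msn2 and Msn4 and from genes of stationary phase, and heat shock, redox and storage carbohydrate genes were left out of the choice. All 36 were found on the array, each with 1 probe set of its own, among 5449 S. cerevisiae genes measured. No measured difference entered the rule, but the list was drawn up with earlier results of these data known.

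Messenger RNA was read on 10 Affymetrix arrays from haploid strains of the background Sce3044, in 5 genotypes with 2 arrays each, labelled as biological replicates (n = 2 throughout). Ancestral carried no evolved allele. An e after a gene's name marks its evolved allele in the other genotypes, which were MKT1e, MDS3e, the pair MDS3e MKT1e, and PMA1e MKT1e, and no further evolved allele was present in any strain. MKT1 encodes a protein of post-transcriptional regulation, PMA1 the plasma membrane proton pump, and MDS3 a protein of nutrient signalling. Every strain was taken from the archive, passed an overnight culture in rich medium and then grew in a defined medium with 0.25% dextrose for about 17 h to an optical density near 0.2, labelled as logarithmic growth, so no culture had been stressed or held in stationary phase by design. Whether the cultures of a genotype came from separate clones is not stated in the labels, no strain with PMA1e alone was analysed here, and p-values measure the spread between these cultures.

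In growing cells with ample glucose, the cyclic AMP-dependent protein kinase A holds Msn2 and Msn4 out of the nucleus. When the activity of protein kinase A and of the TOR pathway drops, or when cells meet heat, salt or oxidants, both factors enter the nucleus and bind the stress response element in the promoters of a large set of genes, while the kinase Rim15 acts on them and on Gis1 as nutrients run out. The effector genes below were listed as genes of that kind or of stationary phase, and their control was not tested here. They encode wall and membrane proteins, hydrophilic proteins that protect dried or starved cells, and enzymes of detoxification and of side branches of metabolism. Others encode mitochondrial proteins, proteins of survival in stationary phase, and inhibitors and regulators of proteolysis, decapping and transcription.

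The strains are labelled haploid. All 8 haploid-specific genes and all 6 genes specific to mating type a lay above the background limit on every array, with summed intensities of 1975 to 2245 and 4861 to 6245. The summed intensity was 100.1 to 129.9 for the genes of the opposite mating type and 140.7 to 155.2 for the meiotic genes. Detection alone did not set the lists apart, since 3 or 4 of the 4 genes of the opposite mating type and 9 or 10 of the 10 meiotic genes also lay above the limit on both arrays of a genotype, and the sums come from different probe sets. The background limit of an array, the 95th percentile of probe sets for another species, was between 2.14 and 2.47, and all 36 members exceeded it on all 10 arrays. Differences are given on the log2 scale of intensity plus 16, with the standard error and the adjusted p of limma's moderated test. Rankings by size hold on this scale, where the added 16 shrinks the differences of dimmer genes more. A gene was called at an adjusted p under 0.05 over all 5449 genes, and the words rose and fell are kept for such calls. In whole cultures, a lower level in every cell and fewer cells with the message cannot be told apart.

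The effector genes split by the MDS3 allele. In 27 of the 36 members (75%) all 4 arrays with MDS3e lay below all 6 arrays without it, an arrangement found in 561 of all genes (10.3%), and the reverse arrangement was found in 0 members and in 12.7% of all genes. The limma F-test called a difference among the 5 genotypes for 34 of the members (94.4%) and for 2998 genes in all (55%). The exceptions among the members were DDR48 and SPG1. The genotype with the highest mean was PMA1e MKT1e for 27 members (75%, against 21.7% of all genes), and the one with the lowest mean was MDS3e for 17 and MDS3e MKT1e for 15. Ancestral was lowest for 0 members, against 21.8% of all genes.

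**Figure D1:**
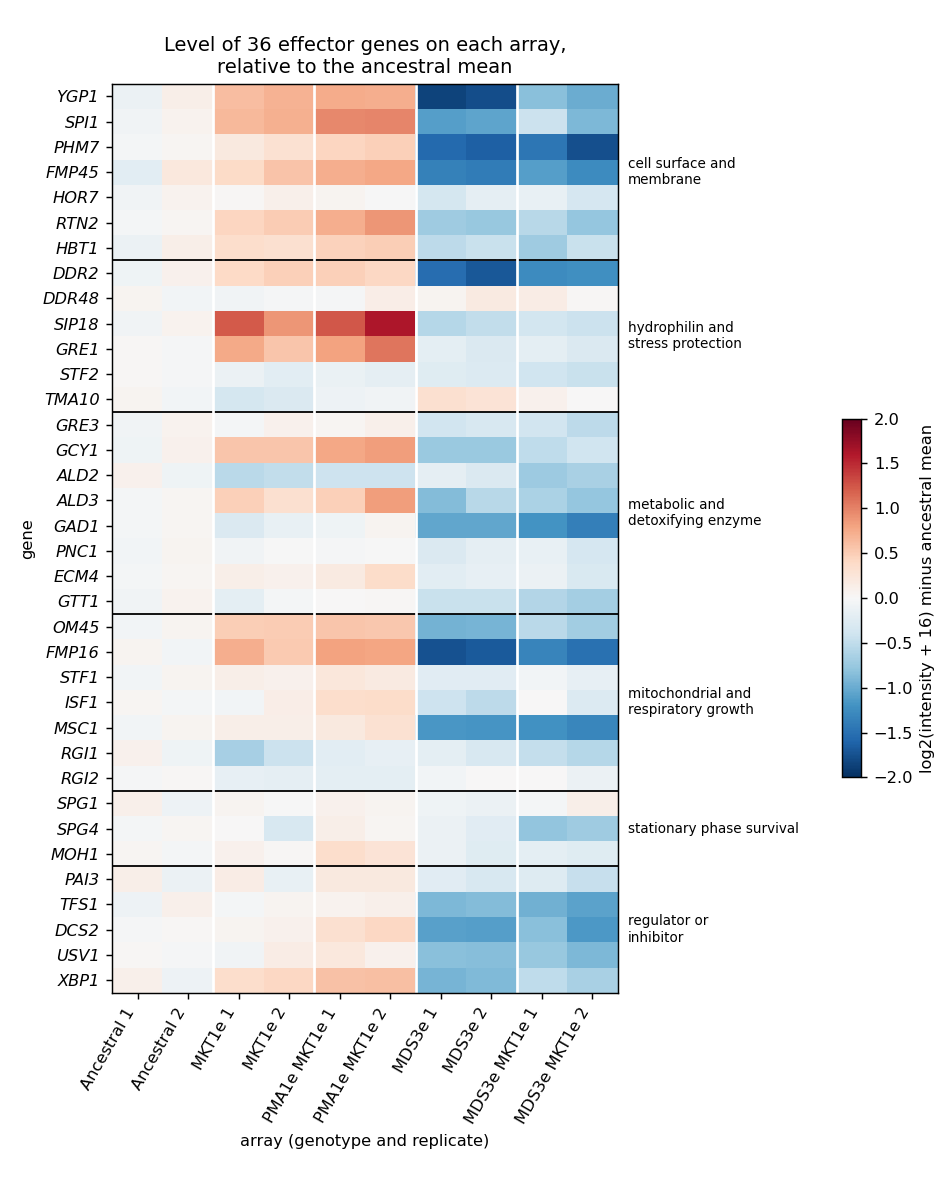
Level of each of the 36 effector genes (rows, grouped by role) on each of the 10 arrays (columns), as log2 of intensity plus 16 minus the ancestral mean, with red above and blue below it. The 4 arrays with MDS3e are blue for most rows, the arrays with MKT1e and without MDS3e are red or pale for most rows and blue for ALD2, and DDR48 and SPG1 are pale throughout.

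The comparison of MDS3e with Ancestral asks what the evolved MDS3 allele does alone. Of the 36 members 26 fell, 1 rose and 9 were not called, with a median difference of -0.47 against 0.03 for all genes; 10.7% of all genes fell, 14.5% rose and 25.2% were called in either direction. After median centring of each array, 31 members fell and 1 rose, and the split over all genes turned from 790 rising and 585 falling to 504 and 845. The members that gained a call there were GRE1 (-0.30), ECM4 (-0.25), RGI1 (-0.31), MOH1 (-0.23) and PAI3 (-0.33). The differences of 21 members lay below the 5th percentile of all genes.

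All 7 cell surface and membrane genes fell in MDS3e. YGP1, which encodes a secreted glycoprotein made as nutrients become limiting, had intensities of 1183 and 1401 in Ancestral, 1991 and 2088 in MKT1e, 2172 and 2132 in PMA1e MKT1e, 345 and 366 in MDS3e and 717 and 637 in MDS3e MKT1e. No genotypes overlapped, MKT1e and PMA1e MKT1e lay close together at the top, and MDS3e was the lowest. The fall from Ancestral to MDS3e was -1.81 ± 0.08 (SE, limma adjusted p = 1.4e-06), the largest of the 36 on the scale with 16 added. PHM7, a membrane protein gene first found among phosphate-regulated transcripts, read 135 and 142 in Ancestral, 161 and 174 in MKT1e, 191 and 198 in PMA1e MKT1e, 36.6 and 33.9 in MDS3e and 40.6 and 29.5 in MDS3e MKT1e. Both genotypes with MDS3e overlapped each other and lay far below the rest, with -1.59 ± 0.09 for MDS3e against Ancestral (adjusted p = 4.8e-06). FMP45, a gene for a membrane protein of the Sur7 family, which marks eisosomes, read 54.6 and 78.5 in Ancestral, 90.7 and 105 in MKT1e, 119 and 124 in PMA1e MKT1e, 16.03 and 14.9 in MDS3e and 22.2 and 18.1 in MDS3e MKT1e. No genotypes overlapped, although the ancestral arrays stood well apart from each other, and the difference in MDS3e was -1.38 ± 0.12 (adjusted p = 4.5e-05).

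SPI1, which encodes an anchored cell wall protein of weak acid resistance, read 377 and 421 in Ancestral, 637 and 660 in MKT1e, 792 and 798 in PMA1e MKT1e, 177 and 184 in MDS3e and 292 and 206 in MDS3e MKT1e. Replicate arrays were close except in MDS3e MKT1e, and SPI1 fell by 1.07 ± 0.12 in MDS3e (adjusted p = 0.00026). RTN2, a gene for a reticulon-like protein that shapes the endoplasmic reticulum, read 76.4 and 81.5 in Ancestral, 111 and 118 in MKT1e, 142 and 158 in PMA1e MKT1e, 41.8 and 40.3 in MDS3e and 48.8 and 39.6 in MDS3e MKT1e. It again showed the order PMA1e MKT1e, MKT1e, Ancestral and then the genotypes with MDS3e, which overlapped, and its fall in MDS3e was -0.73 ± 0.08 (adjusted p = 0.00022). HBT1, needed for the shape of mating projections, fell by 0.48 ± 0.10 (adjusted p = 0.0065), and without replicate 1 of MDS3e the difference of -0.44 had an adjusted p of 0.053. HOR7, a gene induced by high osmolarity, was the least changed of this group at -0.26 ± 0.08 (adjusted p = 0.044), and the call was lost under quantile normalization (-0.08), without replicate 2 of Ancestral (-0.19), without replicate 1 of MDS3e (-0.17) and without any of the MKT1e or PMA1e MKT1e arrays (-0.26 each).

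The hydrophilic and stress protection genes divided. DDR2, a small multistress protein gene often used to report Msn2 and Msn4 activity, read 1051 and 1193 in Ancestral, 1487 and 1566 in MKT1e, 1566 and 1504 in PMA1e MKT1e, 377 and 336 in MDS3e and 456 and 469 in MDS3e MKT1e. Its groups did not overlap except for MKT1e and PMA1e MKT1e, and it fell by 1.61 ± 0.08 in MDS3e (adjusted p = 1.4e-06). DDR48, another gene named for induction by DNA damage, read between 1164 and 1386 on the 10 arrays and was called in no comparison. Of the other genes of this group, SIP18 and STF2 fell, TMA10 rose and GRE1 was not called, as described below with the duplicate pairs.

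Of the 8 genes for metabolic and detoxifying enzymes, 7 fell in MDS3e. GCY1, which encodes a glycerol dehydrogenase, read 304 and 341 in Ancestral, 480 and 478 in MKT1e, 559 and 585 in PMA1e MKT1e, 186 and 185 in MDS3e and 222 and 241 in MDS3e MKT1e. All 5 genotypes formed separate levels, with -0.74 ± 0.07 for MDS3e against Ancestral (adjusted p = 5.4e-05). GAD1, the glutamate decarboxylase gene, had the largest fall of the group at -1.03 ± 0.08 (adjusted p = 1.7e-05), from intensities of 317 and 333 to 151 and 151. GTT1, a glutathione transferase gene, fell by 0.45 ± 0.07 (adjusted p = 0.0021) and GRE3, which encodes an aldose reductase, by 0.35 ± 0.07 (adjusted p = 0.0082). The call for GRE3 was lost without replicate 2 of Ancestral (-0.28, adjusted p = 0.052) or replicate 1 of MDS3e (-0.32, adjusted p = 0.063). PNC1, which encodes the nicotinamidase of NAD salvage, fell by 0.24 ± 0.07 (adjusted p = 0.034), a call lost after quantile normalization (-0.15) and without replicate 2 of Ancestral (-0.19), replicate 1 or 2 of MDS3e (-0.18 and -0.30) or either PMA1e MKT1e array (-0.24). ECM4, an omega class glutathione transferase gene, differed by -0.19 and was not called (adjusted p = 0.098).

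Of the 7 genes of mitochondria and respiratory growth, 5 fell in MDS3e. FMP16, whose mitochondrial product has no assigned function, read 240 and 220 in Ancestral, 391 and 336 in MKT1e, 413 and 407 in PMA1e MKT1e, 57.2 and 60.8 in MDS3e and 82.7 and 71.1 in MDS3e MKT1e. Each genotype kept a range of its own, and the fall in MDS3e was -1.71 ± 0.08 (adjusted p = 1.6e-06), next to that of YGP1. MSC1, named for a recombination phenotype of its mutants, read 676 and 733 in Ancestral, 767 and 767 in MKT1e, 811 and 878 in PMA1e MKT1e, 304 and 300 in MDS3e and 296 and 275 in MDS3e MKT1e. The 4 arrays with MDS3e were far below the other 6, and the difference was -1.18 ± 0.06 (adjusted p = 3e-06). OM45, a major protein of the mitochondrial outer membrane, read 305 and 332 in Ancestral, 455 and 461 in MKT1e, 475 and 467 in PMA1e MKT1e, 157 and 160 in MDS3e and 213 and 190 in MDS3e MKT1e. Its levels also stood apart by genotype, with -0.94 ± 0.06 in MDS3e (adjusted p = 1.4e-05). ISF1, linked to respiratory growth, fell by 0.47 ± 0.09 (adjusted p = 0.0066; -0.41 with adjusted p = 0.054 without replicate 2 of MDS3e), and STF1, which binds the mitochondrial ATP synthase with its inhibitor, fell by 0.23 ± 0.06 (adjusted p = 0.02), a call that was lost without replicate 2 of Ancestral (-0.17) or either MDS3e array (-0.23 each).

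Of the 5 regulators and inhibitors 4 fell in MDS3e. DCS2, a gene for a modulator of the scavenger decapping enzyme Dcs1, read 447 and 461 in Ancestral, 470 and 484 in MKT1e, 569 and 611 in PMA1e MKT1e, 205 and 202 in MDS3e and 246 and 195 in MDS3e MKT1e. Ancestral and MKT1e lay close together and the genotypes with MDS3e overlapped far below them, with a fall of -1.10 ± 0.09 (adjusted p = 2.9e-05). XBP1, which encodes a stress-induced transcriptional repressor, read 80.1 and 68.2 in Ancestral, 98.2 and 103 in MKT1e, 119 and 120 in PMA1e MKT1e, 31.1 and 32.9 in MDS3e and 47.2 and 41.1 in MDS3e MKT1e. The 5 genotypes did not overlap, and the fall was -0.91 ± 0.07 (adjusted p = 3.1e-05). TFS1, which encodes an inhibitor of carboxypeptidase Y, fell by 0.89 ± 0.07 (adjusted p = 2.7e-05) and USV1, a transcription factor gene, by 0.84 ± 0.08 (adjusted p = 9.6e-05). PAI3, the gene of the proteinase A inhibitor, differed by -0.27 and was not called (adjusted p = 0.09). None of the 3 genes required for or linked to survival in stationary phase was called in MDS3e: MOH1 differed by -0.18, SPG4 by -0.17 and SPG1 read between 7.32 and 11.3 on the 10 arrays. MOH1 and PAI3 were called lower after median centring (-0.23 and -0.33) and with a replicate block.

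**Figure D2:**
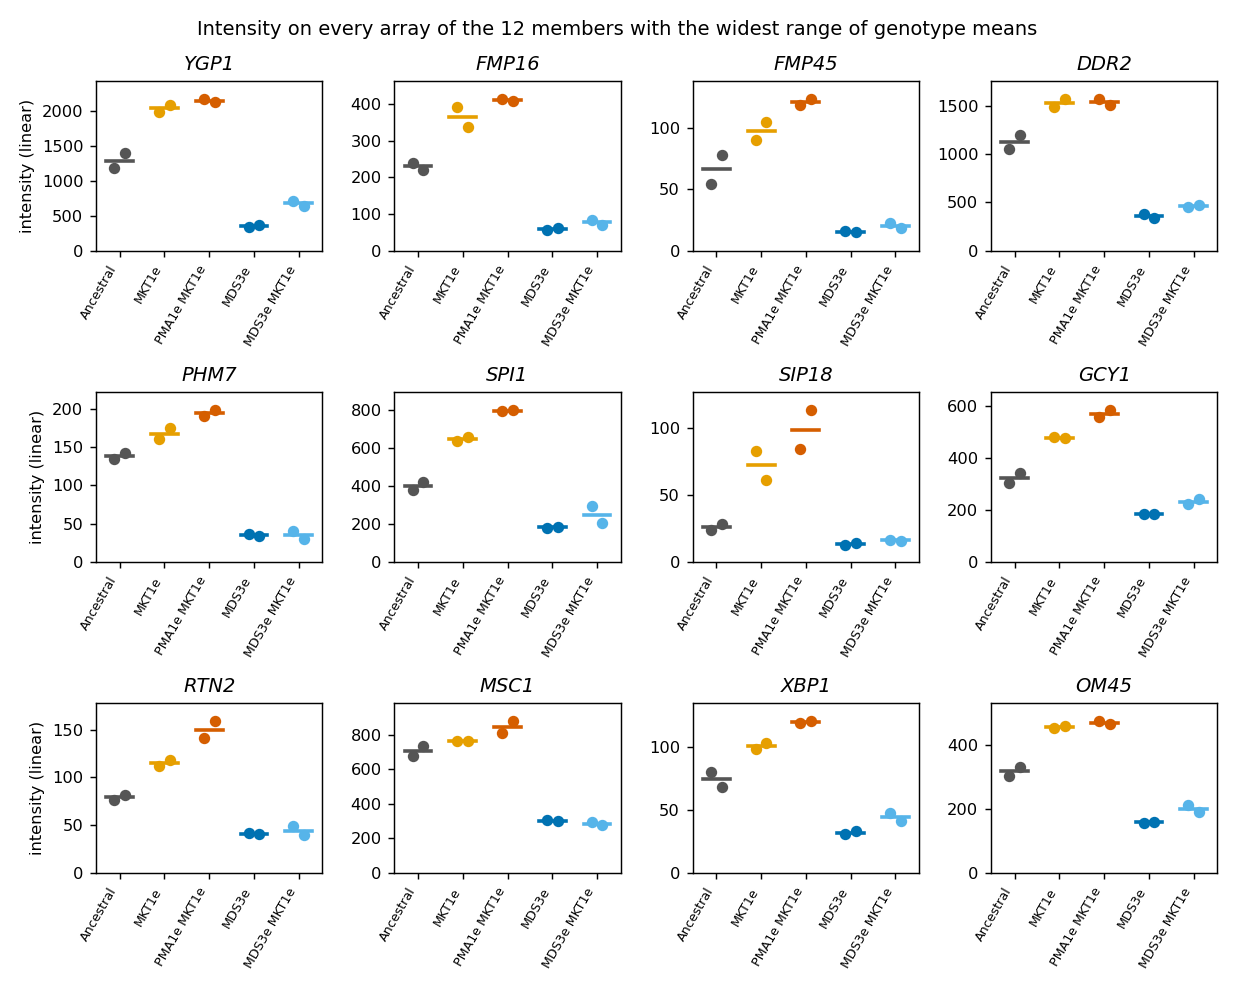
Linear intensity on each array (points, 2 per genotype) and the mean (bar) of the 12 effector genes with the widest range of genotype means, which was 2.55 for YGP1 and 1.48 for OM45 on the log2 scale. In each panel MDS3e and MDS3e MKT1e lie below the other 3 genotypes and PMA1e MKT1e has the highest mean.

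MKT1e against Ancestral asks what the evolved MKT1 allele does alone. Fewer members moved than with MDS3e: 13 rose, 3 fell and 20 were not called, with a median of 0.07 against -0.01 for all genes. Over all genes 11.8% rose, 8.48% fell and 20.3% were called, with 642 rising and 462 falling, or 582 and 637 after median centring, where 13 members rose and 4 fell. The largest rise was that of SIP18, a hydrophilin gene of desiccation tolerance. Of the cell surface and membrane genes 5 of 7 rose, with SPI1 at 0.68 ± 0.12 (adjusted p = 0.0027), YGP1 at 0.66 ± 0.08 (adjusted p = 0.00033) and RTN2 at 0.46 ± 0.08 (adjusted p = 0.0023). The rises of FMP45 (0.48 ± 0.12, adjusted p = 0.018) and HBT1 (0.33 ± 0.10, adjusted p = 0.033) were less steady: without replicate 1 of Ancestral they were 0.27 (adjusted p = 0.087) and 0.22 (adjusted p = 0.19). FMP45 also lost its call without replicate 2 of MKT1e (0.39, adjusted p = 0.12), and HBT1 without replicate 1 or 2 of MKT1e (0.32 and 0.35) or either PMA1e MKT1e array (0.33). PHM7 differed by 0.25 and was not called (adjusted p = 0.079).

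The other rises in MKT1e came from each of the remaining groups except the genes of stationary phase survival. FMP16 rose by 0.62 ± 0.08 (adjusted p = 0.00043), GCY1 by 0.55 ± 0.07 (adjusted p = 2e-04), OM45 by 0.51 ± 0.06 (adjusted p = 0.00033), DDR2 by 0.44 ± 0.08 (adjusted p = 0.0021) and XBP1 by 0.38 ± 0.07 (adjusted p = 0.0051). Among the genes that fell strongly in MDS3e, GAD1 differed by -0.22 in MKT1e (adjusted p = 0.063), MSC1 by 0.12, DCS2 by 0.07, USV1 by 0.04 and TFS1 by 0.01, and none of these was called. The 3 members that fell in MKT1e were ALD2, RGI1 and TMA10, 1 gene of each of 3 duplicate pairs.

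Both alleles were combined in MDS3e MKT1e. Against Ancestral, 28 members fell, 0 rose and 8 were not called, with a median of -0.58 against 0.03 for all genes, of which 16.7% fell, 21.9% rose and 38.7% were called. After median centring 31 members fell and 0 rose, and the split over all genes turned from 1196 rising and 911 falling to 785 and 1423. All 7 cell surface and membrane genes fell, from -0.25 ± 0.08 for HOR7 (adjusted p = 0.039) to -1.60 ± 0.09 for PHM7 (adjusted p = 1.6e-06). HOR7 lost its call after quantile normalization (-0.02) and without replicate 2 of Ancestral (-0.18), replicate 2 of MDS3e MKT1e (-0.15) or either PMA1e MKT1e array (-0.25). All 5 regulators and inhibitors fell as well, with TFS1 at -1.01 ± 0.07 (adjusted p = 3.7e-06), USV1 at -0.82 ± 0.08 (adjusted p = 3.6e-05) and PAI3 at -0.35 ± 0.11 (adjusted p = 0.026, lost without replicate 1 of Ancestral at -0.23 or replicate 2 of MDS3e MKT1e at -0.25). The differences were -1.26 ± 0.06 for MSC1, -1.28 ± 0.08 for GAD1 and -1.41 ± 0.08 for FMP16 (adjusted p = 1e-06, 1.6e-06 and 1.6e-06). YGP1 lay between the levels of MDS3e and Ancestral, with a fall of -0.91 ± 0.08 (adjusted p = 2.3e-05).

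SPG4, a gene required for survival at high temperature in stationary phase, behaved unlike the other members. It read 24.4 and 26.5 in Ancestral, 25.8 and 17.1 in MKT1e, 28.7 and 26.4 in PMA1e MKT1e, 22.3 and 19.4 in MDS3e and 8.10 and 9.21 in MDS3e MKT1e. The 2 arrays of MDS3e MKT1e were the lowest of the 10, and the other 4 genotypes lay close together or overlapped. The fall was -0.75 ± 0.10 against Ancestral (adjusted p = 0.00021), -0.59 ± 0.10 against MKT1e (adjusted p = 0.002) and -0.58 ± 0.10 against MDS3e (adjusted p = 0.0021). The interaction for SPG4 was -0.42 and was not called (adjusted p = 0.41). MOH1, the other called gene of this group, fell by 0.22 ± 0.06 in MDS3e MKT1e against Ancestral (adjusted p = 0.021), which was lost without replicate 1 of Ancestral (-0.18) or replicate 2 of MDS3e MKT1e (-0.19).

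The replicates of MDS3e MKT1e differed more for these genes than for most. Replicate 1 read above replicate 2 in 30 of the 36 members, with a median difference of 0.13, while over all genes it was above in 48.0%, with a median of -0.00. The median SD of the members was 0.10 in this genotype and between 0.04 and 0.08 in the other 4. The part of this spread in the results was not tested beyond the fits that left out each array.

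**Figure D3:**
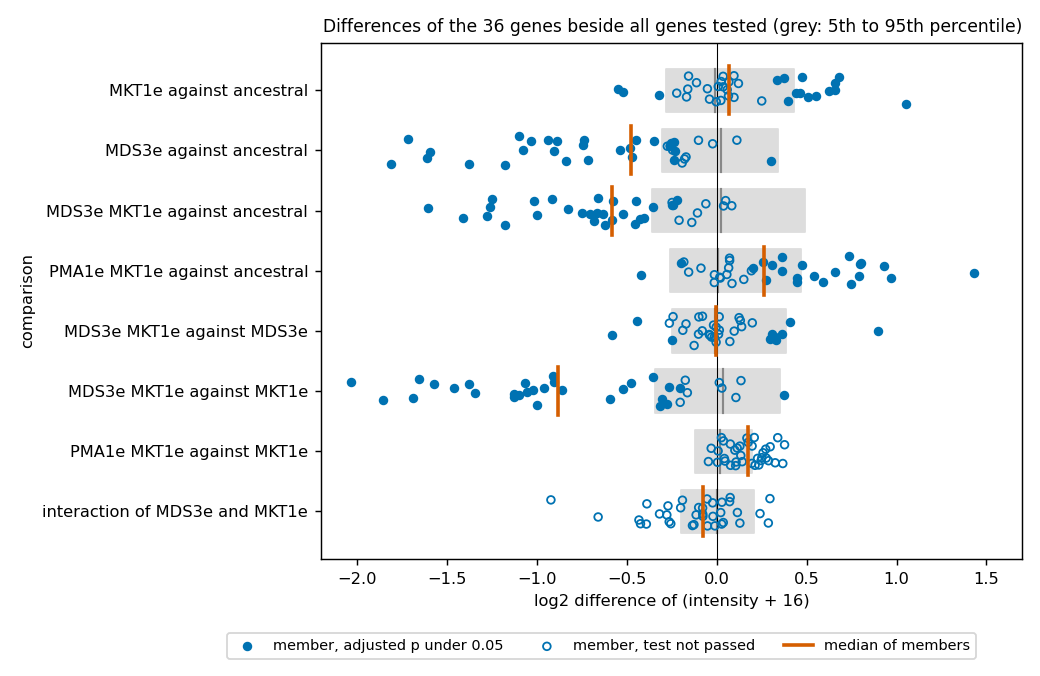
Log2 difference of the 36 effector genes in each comparison (points, filled where the adjusted p was under 0.05), their median (orange bar) and the 5th to 95th percentile and median of all 5449 genes (grey band and line). Most points lie left of the band in the 3 comparisons that turn on MDS3e and many lie right of it for MKT1e and PMA1e MKT1e against ancestral.

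The effect of MDS3e was measured again where MKT1e was present, by setting MDS3e MKT1e against MKT1e, a comparison that shares no array with MDS3e against Ancestral. There 28 members fell, 1 rose and 7 were not called, with a median of -0.88 against 0.03 for all genes, of which 11.5% fell, 15% rose and 26.4% were called. After median centring 30 members fell and 1 rose, and the split over all genes turned from 815 rising and 625 falling to 465 and 912 (497 and 595 after cyclic loess). FMP16 had the largest fall at -2.03 ± 0.08 (adjusted p = 3.9e-07), followed by PHM7 at -1.85 ± 0.09 (adjusted p = 8e-07), DDR2 at -1.69 ± 0.08 (adjusted p = 5.2e-07) and FMP45 at -1.65 ± 0.12 (adjusted p = 9.1e-06). MSC1 fell by 1.38 ± 0.06 (adjusted p = 5.2e-07), GAD1 by 1.05 ± 0.08 and TFS1 by 1.02 ± 0.07 (adjusted p = 9.1e-06 and 7.7e-06).

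Between the 2 measurements of the MDS3e effect, 23 members fell in both and TMA10 rose in both. The share of all genes that fell in both was not counted. It can be at most 10.7%, the share that fell in MDS3e against Ancestral. ALD2, PNC1 and ISF1 fell only in the comparison without MKT1e, and GRE1, ECM4, SPG4, MOH1 and PAI3 only in the one with it. In the comparison with MKT1e, PAI3 (-0.35 ± 0.11, adjusted p = 0.037) lost its call without replicate 1 of MKT1e (-0.21), replicate 2 of MDS3e MKT1e (-0.25) or any MDS3e or PMA1e MKT1e array (-0.35). ECM4 (-0.31 ± 0.08, adjusted p = 0.017) lost it without either MKT1e array (-0.29 and -0.32) or replicate 2 of MDS3e MKT1e (-0.22), and MOH1 (-0.28 ± 0.06, adjusted p = 0.011) without replicate 1 of MKT1e or replicate 2 of MDS3e MKT1e (-0.25 each). DDR48, RGI1, RGI2 and SPG1 were called in neither. Across the 36 members, which are not independent replicates, Pearson's r between both sets of differences was 0.92 and Spearman's rho 0.90, and Pearson's r over all genes was 0.84, as a description of these arrays.

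The effect of MKT1e where MDS3e was present was read from MDS3e MKT1e against MDS3e, which shares no array with MKT1e against Ancestral. Here 8 members rose, 3 fell and 25 were not called, with a median of -0.00 against -0.01 for all genes; 11% of all genes rose, 6.24% fell and 17.2% were called. After median centring 8 members rose and 6 fell, and the split over all genes turned from 597 rising and 340 falling to 515 and 489. The rise of YGP1, 0.90 ± 0.08 (adjusted p = 4.7e-05), was the largest and was followed by SPI1 at 0.41 ± 0.12 (adjusted p = 0.041), DDR2 at 0.36 ± 0.08 (adjusted p = 0.0077), ISF1 at 0.33 ± 0.09 (adjusted p = 0.036), XBP1 at 0.32 ± 0.07 (adjusted p = 0.013), OM45 at 0.32 ± 0.06 (adjusted p = 0.0075), FMP16 at 0.31 ± 0.08 (adjusted p = 0.03) and GCY1 at 0.30 ± 0.07 (adjusted p = 0.011). Of these rises YGP1 kept its call whichever array was left out. Without either MDS3e array 4 members were called, and without replicate 1 of MDS3e MKT1e 7 were; SPI1 was then at 0.17, ISF1 at 0.19, FMP16 at 0.22, OM45 at 0.24 and XBP1 at 0.25. DDR2 lost its call without replicate 2 of MDS3e (0.28, adjusted p = 0.083) and GCY1 without either MDS3e array (0.30 and 0.29) or replicate 2 of MDS3e MKT1e (0.24).

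In both backgrounds 7 members rose with MKT1e, namely YGP1, SPI1, DDR2, GCY1, OM45, FMP16 and XBP1, and TMA10 and ALD2 fell in both. The shares of all genes called in both were not counted. They can be at most 11% for rises and 6.24% for falls, the shares with MDS3e present. The fall of TMA10 with MDS3e present was -0.25 ± 0.06 (adjusted p = 0.016) and was not called without either MDS3e array (-0.22 and -0.27) or replicate 2 of MDS3e MKT1e (-0.21). FMP45, RTN2, HBT1, SIP18, GRE1 and ALD3 rose and RGI1 fell only without MDS3e, and ISF1 rose and SPG4 fell only with it, while 18 members were called in neither. Pearson's r between the 2 sets of differences was 0.71 over the 36 members and 0.81 over all genes, again as a description.

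**Figure D4:**
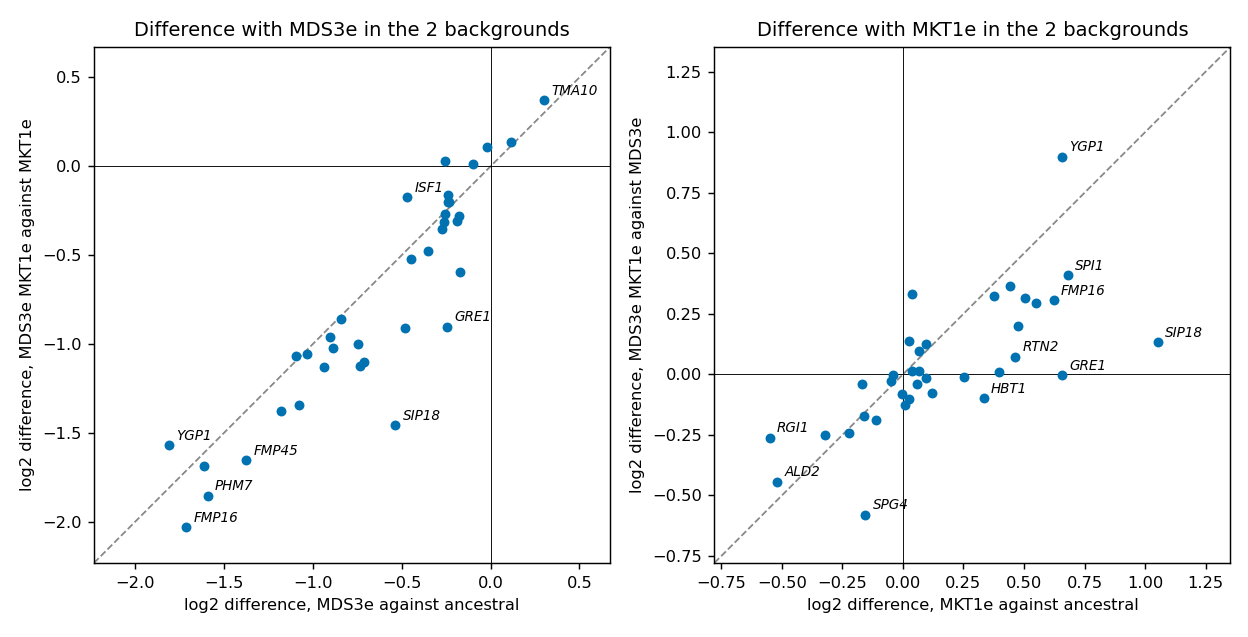
Log2 differences of the 36 effector genes with an evolved allele in both backgrounds. Left, MDS3e with MKT1e (vertical axis) against MDS3e without it (horizontal axis); right, MKT1e with MDS3e against MKT1e without it; the dashed line marks equal differences. Points on the left follow the line (r = 0.92), whereas SIP18 and GRE1 lie far off it in both panels.

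Whether a difference with one allele depended on the other was tested by the interaction term of the fit. By limma, 0 of the 36 members passed, and 21 of all genes did (0.385%, of which 0.0734% were above 0 and 0.312% below), so a call in 1 background alone was not shown to be a difference between backgrounds. At an unadjusted p under 0.05 there were 10 members, 8 below 0 and 2 above, against 7.1% of all genes. The lowest adjusted p, 0.084, was shared by SIP18 at -0.92 ± 0.18 (95% interval -1.32 to -0.52) and GRE1 at -0.66 ± 0.13 (95% interval -0.95 to -0.37). Both passed without replicate 1 or 2 of PMA1e MKT1e, 2 arrays that are not part of the contrast (adjusted p = 0.046 for SIP18 and 0.047 for GRE1), and SIP18 also passed without replicate 2 of MKT1e (-1.10, adjusted p = 0.037).

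PMA1e MKT1e against Ancestral gave the most rises. Of the members 20 rose, 2 fell and 14 were not called, with a median of 0.26 against 0.01 for all genes, of which 14.3% rose, 7.32% fell and 21.6% were called. After median centring 17 members rose and 3 fell, and the split over all genes turned from 778 rising and 399 falling to 587 and 782 (641 and 582 after quantile normalization). The largest rises were those of SIP18 at 1.43 ± 0.13 (adjusted p = 3e-05), SPI1 at 0.97 ± 0.12 (adjusted p = 0.00025), GRE1 at 0.93 ± 0.09 (adjusted p = 5.8e-05), GCY1 at 0.80 ± 0.07 (adjusted p = 1.7e-05) and RTN2 at 0.80 ± 0.08 (adjusted p = 5.9e-05). Rises of 0.26 to 0.45 were also called for PHM7, MSC1, DCS2, MOH1, ISF1 and ECM4, of which 0 were called in MKT1e. Of these, PHM7 kept its call whichever array was left out (0.45 ± 0.09, adjusted p = 0.0056). MSC1 lost its call after median centring (0.20) and without replicate 1 of Ancestral (0.20) or replicate 2 of PMA1e MKT1e (0.20). DCS2 lost it without the same arrays (0.34 and 0.32). ECM4 lost it without these arrays too (0.23 and 0.18) and after median centring (0.22), MOH1 without replicate 1 of PMA1e MKT1e (0.27), and ISF1 without replicate 2 of Ancestral (0.32) or either PMA1e MKT1e array (0.37 and 0.36). STF1 rose by 0.20 ± 0.06 (adjusted p = 0.036), a call lost after median centring (0.15). That call was also lost without replicate 1 of Ancestral (0.14), either PMA1e MKT1e array (0.18 and 0.23) or either MDS3e array (0.20). The 2 members that fell were ALD2, at -0.42 ± 0.07 (adjusted p = 0.0017), and RGI2, at -0.20 ± 0.06 (adjusted p = 0.035).

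Set directly against MKT1e, PMA1e MKT1e showed the contribution of the PMA1 allele in the presence of MKT1e. By limma 0 of the 36 members were called, as against 1 of all genes (0.0184%). At an unadjusted p under 0.05, 15 members were higher and 0 were lower, against 9.86% of all genes in either direction. The value was above 0 for 34 of the 36 members, with a median of 0.17 against 0.02 for all genes, and 17 members lay above the 95th percentile of all genes. RTN2 had the smallest adjusted p, 0.19, with a difference of 0.34 ± 0.08 and a 95% interval of 0.16 to 0.52. The highest upper bound of a 95% interval was 0.66, for SIP18, so differences above that size were outside the intervals of all 36 members, and smaller ones were not resolved at 2 arrays a genotype.

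Of the duplicate genes in the list, 4 pairs are described here. SIP18 read 24.2 and 28.6 in Ancestral, 83.3 and 61.6 in MKT1e, 84.5 and 114 in PMA1e MKT1e, 12.4 and 13.98 in MDS3e and 16.6 and 15.3 in MDS3e MKT1e. Its duplicate GRE1, also a hydrophilin gene, read 19.3 and 18.3 in Ancestral, 42.9 and 35.1 in MKT1e, 44.6 and 56.7 in PMA1e MKT1e, 14.3 and 12.5 in MDS3e and 14.2 and 12.4 in MDS3e MKT1e. For both genes the genotypes with MKT1e and without MDS3e were high and the genotypes with MDS3e were low. The rise in MKT1e was 1.05 ± 0.13 for SIP18 (adjusted p = 0.00025) and 0.66 ± 0.09 for GRE1 (adjusted p = 0.00062). These genes are dim, so the added 16 shrinks their differences: the rise of SIP18 was 1.41 with 1 added and 0.59 with 64 added, and was called with each. Where MDS3e was present, MKT1e made a difference of 0.13 for SIP18 and -0.00 for GRE1, and neither was called. Against Ancestral, the fall of SIP18 was -0.54 ± 0.13 for MDS3e (adjusted p = 0.015), a call lost without replicate 2 of Ancestral (-0.46) or either MDS3e array (-0.50 and -0.58), and -0.40 ± 0.13 for MDS3e MKT1e (adjusted p = 0.03), lost without replicate 2 of Ancestral (-0.33) or either MDS3e MKT1e array (-0.43 and -0.37). Against Ancestral, the differences of GRE1 were -0.24 for MDS3e (adjusted p = 0.078) and -0.25 for MDS3e MKT1e (adjusted p = 0.057), and neither was called.

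ALD2 and ALD3 encode cytosolic aldehyde dehydrogenases and lie next to each other on chromosome XIII in the R64 annotation. ALD2 read 168 and 146 in Ancestral, 102 and 106 in MKT1e, 113 and 113 in PMA1e MKT1e, 135 and 125 in MDS3e and 88.7 and 94.3 in MDS3e MKT1e. ALD3 read 62.2 and 67.02 in Ancestral, 96.0 and 84.7 in MKT1e, 96.7 and 127 in PMA1e MKT1e, 28.01 and 38.9 in MDS3e and 35.9 and 31.3 in MDS3e MKT1e. ALD2 was highest in Ancestral and low wherever MKT1e was present, whereas ALD3 was high in the genotypes with MKT1e and without MDS3e and low with MDS3e. In MKT1e, ALD2 fell by 0.52 ± 0.07 (adjusted p = 0.00043), and ALD3 rose by 0.40 ± 0.12 (adjusted p = 0.046), a call lost without either Ancestral array (0.36 and 0.44), either MKT1e array (0.32 and 0.47) or either MDS3e MKT1e array (0.40). In MDS3e, ALD3 fell by 0.71 ± 0.12 (adjusted p = 0.0035) and ALD2 by 0.24 ± 0.07 (adjusted p = 0.032), the latter lost without replicate 1 of Ancestral (-0.15) or either MDS3e array (-0.29 and -0.19). With MDS3e present, the difference with MKT1e was -0.44 ± 0.07 for ALD2 (adjusted p = 0.0015) and 0.01 for ALD3, which was not called.

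STF2 and TMA10 encode small hydrophilic proteins, the former tied to desiccation tolerance and the latter found with ribosomes. STF2 read 1588 and 1543 in Ancestral, 1446 and 1354 in MKT1e, 1433 and 1376 in PMA1e MKT1e, 1318 and 1299 in MDS3e and 1179 and 1143 in MDS3e MKT1e. TMA10 read 809 and 752 in Ancestral, 606 and 636 in MKT1e, 727 and 740 in PMA1e MKT1e, 981 and 947 in MDS3e and 831 and 786 in MDS3e MKT1e. STF2 was highest in Ancestral and lowest with both alleles, and TMA10 was highest in MDS3e and lowest in MKT1e. With MDS3e, TMA10 rose by 0.30 ± 0.06 (adjusted p = 0.0062; 0.27 with adjusted p = 0.053 without replicate 1 of MDS3e) and STF2 fell by 0.26 ± 0.06 (adjusted p = 0.0092; -0.13 and not called after quantile normalization, and -0.25 with adjusted p = 0.058 without replicate 2 of MDS3e). TMA10 fell by 0.32 ± 0.06 with MKT1e alone (adjusted p = 0.0033) and was the one member that rose with MDS3e on the MKT1e background, by 0.37 ± 0.06 (adjusted p = 0.0019).

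RGI1 and RGI2 are genes of energy metabolism in respiring cells. RGI1 read 736 and 648 in Ancestral, 429 and 508 in MKT1e, 596 and 617 in PMA1e MKT1e, 600 and 550 in MDS3e and 494 and 459 in MDS3e MKT1e, so Ancestral was highest and both arrays of MKT1e were well below it. The falls of RGI1 against Ancestral were -0.55 ± 0.09 for MKT1e (adjusted p = 0.0015) and -0.52 ± 0.09 for MDS3e MKT1e (adjusted p = 0.0013). RGI2 read 4.65 and 5.41 in Ancestral, 2.80 and 2.66 in MKT1e, 2.33 and 2.35 in PMA1e MKT1e, 4.34 and 5.09 in MDS3e and 5.09 and 3.29 in MDS3e MKT1e. These values lie little above the background limits, and the single call for RGI2, its fall in PMA1e MKT1e against Ancestral, was lost without either Ancestral array (-0.22 and -0.17), either MDS3e array (-0.20) or either PMA1e MKT1e array (-0.20).

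**Figure D5:**
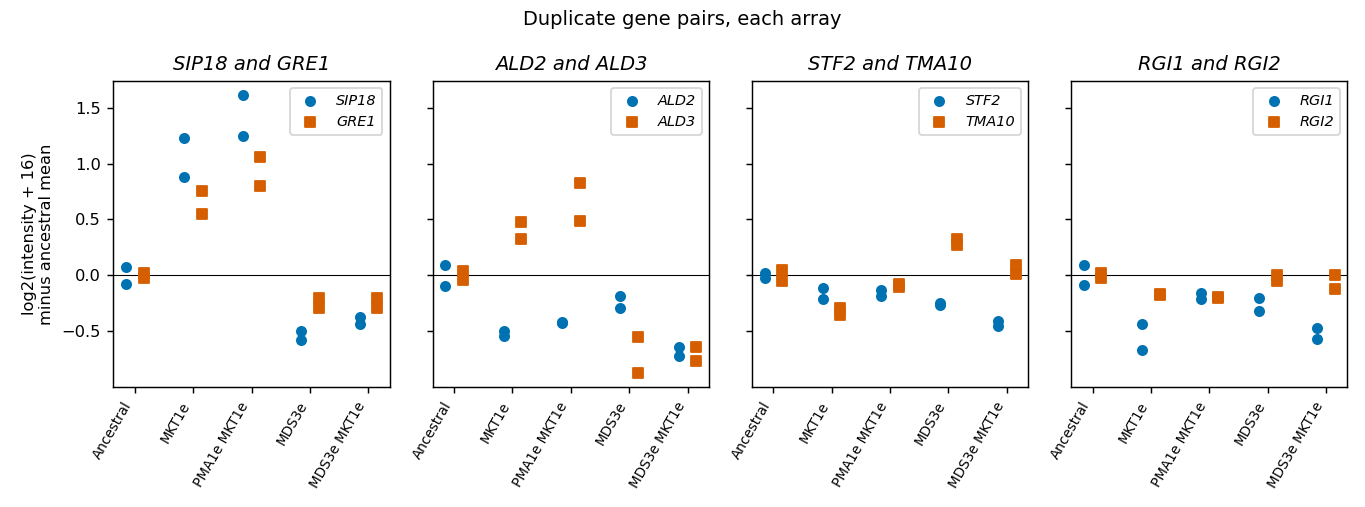
The 4 duplicate pairs described, on each array, as log2 of intensity plus 16 minus the gene's own ancestral mean (vertical axis) for the 5 genotypes (horizontal axis), with circles for the first gene of a pair and squares for the second. SIP18 and GRE1 share their direction, ALD2 lies below and ALD3 above 0 in MKT1e, and STF2 and TMA10 lie on opposite sides of 0 in MDS3e.

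Of the 36 members 10 lie on chromosome XIII, which holds 7.78% of the genes tested. In the R64 annotation DDR48, PAI3 and SIP18 are direct neighbours there, as are HBT1 and FMP45 on chromosome IV. HBT1 and FMP45 fell together with MDS3e in both backgrounds. In the other row, DDR48 was called in no comparison, while SIP18 rose with MKT1e and its neighbour PAI3 differed by -0.00 and was not called there.

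Stress regulators were measured alongside these genes, 39 of 40 listed genes of the Msn2 and Msn4, Ras and protein kinase A, Rim15, Hog1 and TOR pathways. MSN2 read between 189 and 228 and MSN4 between 172 and 207 on the 10 arrays, and neither was called in any comparison. For MSN2, but not MSN4, all 4 arrays with MDS3e lay below the other 6, as in 10.3% of all genes. The limma F-test among the 5 genotypes did not call MSN2 (adjusted p = 0.062). Over the 10 arrays DDR2 read between 336 and 1566. Against Ancestral 10 regulators fell and 1 rose in MDS3e, 3 fell and 5 rose in MKT1e, 6 fell and 6 rose in MDS3e MKT1e, and 0 fell and 6 rose in PMA1e MKT1e. The shares called in either direction were 28.2%, 20.5%, 30.8% and 15.4%, beside 25.2%, 20.3%, 38.7% and 21.6% of all genes, so these shares are near or below the background. By direction, the 10 falls among 39 regulators in MDS3e stood above the share of all genes. Of all genes 10.7% fell and 14.5% rose there. The called falls in MDS3e were small, from -0.18 for GPR1, the glucose-sensing receptor, to -0.33 for GPA2, its G protein, and included YAK1, a kinase that acts against protein kinase A, at -0.25, GIS1, a transcription factor downstream of Rim15, at -0.25, WHI2, a protein of the general stress response, at -0.31, BMH1 and BMH2, which encode proteins of the 14-3-3 family, at -0.28 and -0.29, and BCY1, the inhibitory subunit of protein kinase A, at -0.19. GPR1 was not called by the limma F-test among the 5 genotypes (adjusted p = 0.064), and its lowest mean was in MKT1e. The regulator that rose in MDS3e was YAP1, an activator of the oxidative stress response, at 0.30. BCY1 rose in MKT1e (0.23) and in PMA1e MKT1e (0.29), where TPK2, a catalytic subunit of the kinase, rose by 0.35.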

How the data were processed

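RNA of 10 cultures, 5 genotypes with 2 arrays each, was hybridised to Affymetrix yeast arrays. The deposited intensity values were made by the authors in Affymetrix Expression Console, per the submitters' processing notes; the algorithm and version were not stated there. The table holds 10928 probe sets on a linear scale, from 0.00517 to 3479, already normalized, and was not rescaled. Of 5498 probe sets naming 1 S. cerevisiae gene, the brightest per gene left 5449 genes; array medians differed by at most 0.105 on the log2 scale, so counts after median centring are also given.

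In limma 3.58.1 (R 4.3.3), log2 of intensity plus 16 was modelled with a mean for each genotype, using all 10 arrays together, with two-sided moderated tests and Benjamini-Hochberg adjustment over 5449 genes. The fit was checked on simulated data with known changes. The number of arrays limits the precision.

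The members, lists, tests and named genes were chosen with earlier results of these data known. Values on each array were given for the 14 members with the widest range of genotype means. They were also given for both genes of each duplicate pair described above. Any other duplicates among the members were not paired. SPG4, and the pairs of values for GAD1, were added after their values had been seen. Called members and regulators could be named. Gene neighbours came from the R64 annotation; no sequence was used here. Alternatives were median centring, quantile and cyclic loess normalization, added constants of 1 and 64, filters on dim or shared probe sets, the mean of probe sets, trended and robust variances, a threshold of 0.01, a replicate block, only the compared genotypes, and each array left out.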

Additional observations from a re-analysis of the deposited data

Results flagged for a closer look

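The difference of MSC1 with MKT1e had opposite signs in the 2 backgrounds, 0.12 without MDS3e and -0.08 with it, and the compared arrays did not overlap. Both MKT1e arrays (767 and 767) were above both Ancestral arrays (676 and 733), whereas both MDS3e MKT1e arrays (296 and 275) were below both MDS3e arrays (304 and 300). The interaction term was -0.20 on the log2 scale and did not pass (limma adjusted p = 0.7), and neither of the differences with MKT1e was called. Other members also had opposite signs, such as HBT1 (0.33 and -0.10), whose interaction of -0.43 did not pass either (limma adjusted p = 0.39).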

How the results depend on the processing

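Of 133 pairs of member and comparison that were called, 94 kept their call under each alternative and whichever array was left out: 13 of 16 in MKT1e, 17 of 27 in MDS3e, 23 of 28 in MDS3e MKT1e and 15 of 22 in PMA1e MKT1e against Ancestral, 23 of 29 in MDS3e MKT1e against MKT1e, and 3 of 11 in MDS3e MKT1e against MDS3e. No called direction was reversed. The least steady count was the last: 11 members became 5 at an adjusted p under 0.01 and ran from 4 to 13 when 1 array was left out. The interaction, with 0 members called, gave 2 (SIP18 and GRE1) after median centring and 2 with only the compared genotypes in the fit, and 0 to 2 when 1 array was left out; the cause was not tested. Deviations of same-numbered arrays correlated at 0.39, 0.24 and 0.19 among Ancestral, MKT1e and MDS3e and from -0.20 to 0.03 in the pairs with another genotype, so the numbers were not taken to pair the samples; a replicate block gave 28 called members in place of 27 in MDS3e against Ancestral (MOH1 and PAI3 gained a call at adjusted p = 0.034 and 0.026, HOR7 lost it at 0.051), 33 in place of 34 members that differed among the 5 genotypes, and equal counts in the other comparisons. RGI2 lies just above the background limit and carries little signal. SPG1, between 7.32 and 11.3, lies further above the limit but is also dim. The constant of 16 shrinks the differences of both.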
